A study of Homo sapiens with 26 samples.

Results

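The histone genes comprised 90 of the 26485 genes in the deposited tables, chosen by symbol. Of these, 73 were clustered genes with HIST symbols, and 17 were variant genes named H1F, H2AF or H3F3. By symbol, the clustered genes comprised 6 genes of linker histone H1, 18 of H2A, 20 of H2B, 14 of H3 and 15 of H4. They lay on chromosomes 6 (56 genes), 1 (16 genes) and 12 (1 gene), whereas the variants were spread over 12 chromosomes. Pseudogenes made up 3 of the clustered genes and 1 of the variants by their RefSeq type.

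RNA sequencing was done on KELLY, an established cell line grown from a human neuroblastoma that carries extra copies of MYCN. Cells carried a doxycycline-inducible vector that was empty (EV, named F1HUTG in the labels) or held a hairpin RNA against the co-repressor RUNX1T1, called sh4 or shAMB. Each of these 3 lines was treated for 72 h with doxycycline or the solvent DMSO, with 3 libraries per group. Another 8 libraries came from KELLY tumours grown in immunocompromised mice, 4 labelled WT control on control food and 4 labelled RUNX1T1 KO on doxycycline food. All 3 culture lines thus carried the vector. According to the paper, its KELLY xenografts carried an inducible hairpin against RUNX1T1 in both groups, which differed in food. KO is therefore used here only as a label, and label and food cannot be told apart in the xenografts. The paper based this hairpin on an Ambion sequence, and it may be the one called shAMB. The labels give neither a clonal origin of the lines nor whether replicates were separate cultures, so that p-values in culture cover the spread between these libraries, which may be technical. 

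Libraries held between 35115915 and 62378060 counts. RUNX1T1 RNA, the target of the hairpins, lay between 30.1 and 44.1 CPM (a count scaled to library size with edgeR's TMM factors) in every culture library. In xenografts it was at 35.5 ± 5.51 CPM in control and 30.2 ± 5.19 CPM in KO libraries (SD, n = 4 each). Its change passed the test in none of the 4 direct comparisons (edgeR adjusted p 0.117 with sh4, 0.378 with shAMB, 0.672 with the empty vector and 0.229 for xenografts), and groups are named here by their labels. At the protein level, the paper reports lower RUNX1T1 in KELLY cells given doxycycline, with each of its hairpins. It also reports that RUNX1T1 staining was lost after knockdown in KELLY xenografts sampled early in treatment. RNA counts hold no protein values, so whether the hairpins lowered the protein in the samples sequenced here was not tested. All 10 neuroblastoma identity genes examined were above 1 CPM in every group.

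Clustered, or replication-dependent, histone genes mostly lack introns and are transcribed mainly in S phase, when newly copied DNA must be packaged. Their mRNAs end not in a poly(A) tail but in a short hairpin, which the stem-loop binding protein holds during processing and translation. Variant, or replacement, histone genes are scattered, often carry introns, yield polyadenylated mRNA and are expressed throughout the cell cycle and in resting cells. These are general traits, with exceptions among the genes grouped here by symbol.

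The hairpin sequence was therefore looked for first. A stretch of 16 bases spelling the stem-loop, within the gene or 100 bases beyond it, was found in all 73 clustered genes and in 1 of the 17 variants, H2AFX. H2AFX encodes the H2A form phosphorylated at DNA breaks, and its mRNA is known to end either at the hairpin or at a poly(A) tail. In 71 clustered genes exactly 1 stretch was found. The commonest spelling occurred in 40 members, and a spelling with more G and C in the stem in 10. The sites below are read 5′ to 3′ on the strand of the gene in hg38, with the stem-loop in capitals. They are shown for the 4 clustered genes with measurable RNA in cultured cells, for 3 that differed in xenografts, and for H2AFX:
HIST1H2BK: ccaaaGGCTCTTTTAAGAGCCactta
HIST1H2BD: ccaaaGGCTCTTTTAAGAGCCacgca
HIST2H2BE: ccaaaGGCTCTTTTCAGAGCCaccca
HIST1H1C: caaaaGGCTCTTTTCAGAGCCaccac
HIST1H1D: taaacGGCTCTTTTCAGAGCCaccca
HIST2H2AB: ccaaaGGCTCTTTTAAGAGCCaccaa
HIST1H2BM: ccaaaGGCTCTTTTCAGAGCCgtcca
H2AFX: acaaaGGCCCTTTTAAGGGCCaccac

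The stem-loop letters lay on chromosome 6 at 27146366 to 27146381 for HIST1H2BK (minus strand), 26158587 to 26158602 for HIST1H2BD (plus) and 26055744 to 26055759 for HIST1H1C (minus). Those of HIST2H2BE were on chromosome 1 at 149886188 to 149886203 (minus), and those of H2AFX on chromosome 11 at 119094898 to 119094913 (minus). HIST1H1D had its site at 26234217 to 26234232 (minus) and HIST1H2BM at 27815469 to 27815484 (plus), both on chromosome 6, and HIST2H2AB at 149887473 to 149887488 on chromosome 1 (minus). The RefSeq gene model ended 4 bases past the site in HIST1H1C and HIST2H2AB and 5 bases past it in HIST1H1D and HIST1H2BM. It ran on for 8073 bases in HIST1H2BK, 12747 in HIST1H2BD, 1729 in HIST2H2BE and 1024 in H2AFX, introns included. In 62 of the 71 clustered genes with 1 site the model ended within 100 bases of it, and in 9 it ran further.

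Promoter sequences were searched for a pair of short motifs as well, TATAAA and CCAAT, which do not overlap each other. RefSeq promoter windows (hg38; the 250 bases before each start) were available for 65 clustered and 14 variant genes. The letters TATAAA occurred on either strand in 66.2% of the clustered genes, 28.6% of the variants and 11.1% of all 27305 promoters. CCAAT occurred in 84.6%, 78.6% and 33% of them. Each gene was counted, although not all are separate promoters. HIST1H2AD and HIST1H3D share a window, and H2AFB1, H2AFB2 and H2AFB3 have the same letters next to the start.

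Clustered genes were near the lower limit of the counts in culture and abundant in xenografts. In the 18 culture libraries their summed counts were 1247 to 2457, which was 0.00273% to 0.00468% of all counts. In the 8 xenografts they took 0.252% to 0.614%. The share of the variants was 0.353% to 0.393% in culture and 0.240% to 0.285% in xenografts. Per 100 counts of variant genes there were thus 0.771 to 1.21 counts of clustered genes in culture, and 103 to 216 in xenografts, with no overlap. Small RNA genes took 0.717% to 1.55% of counts in culture and 6.97% to 18.2% in xenografts. The labels name 1 library kit, for total RNA, and also polyA RNA as the molecule, for every library, and the part of library preparation in this difference was not tested. Culture and xenograft tables were made and normalised separately, growth setting and library set cannot be told apart, and no test was made between them. In all these bulk samples, fewer cells of a type and less RNA per cell cannot be told apart.

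**Figure D1:**
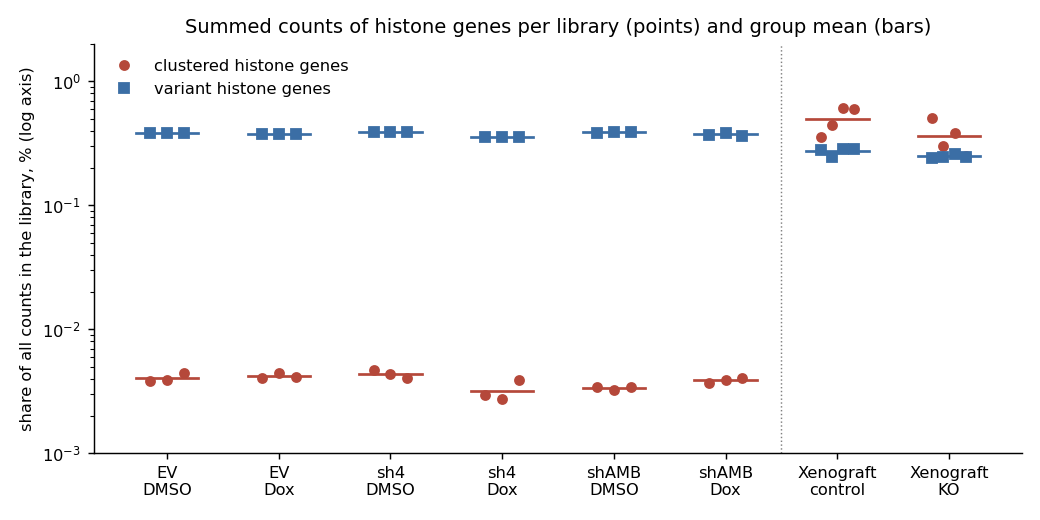
Share of all counts of a library (%, log axis) taken by the 73 clustered genes (circles) and the 17 variant genes (squares) in each library, with bars at group means, for the 6 culture groups (n = 3 each) and the 2 xenograft groups (n = 4 each). Clustered genes lie between 0.00273% and 0.00468% in culture and between 0.252% and 0.614% in xenografts, whereas variants lie between 0.240% and 0.393% throughout.

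The few clustered genes seen in culture were not a cross-section of the set. Only 4 of the 73 reached a mean of 1 CPM there, HIST1H2BK (17.3 CPM), HIST1H1C (5.55 CPM), HIST2H2BE (5.51 CPM) and HIST1H2BD (4.00 CPM), and they held 84.2% of the summed clustered level. HIST1H2BK alone held 45.1%. The 3 H2B genes among them have models that run past the stem-loop. The median clustered gene was at 0.0491 CPM, and 10 had no count in any culture library. For the 62 genes whose model ended near the site the median was 0.0413 CPM in culture and 31.6 CPM in xenografts. For the 9 whose model ran further, it was 0.142 CPM and 104 CPM, both the values of HIST1H2BC. The split rests on RefSeq models, whereas the lengths deposited with the counts were 438 bases for HIST1H2BC, 495 for HIST2H2BF and 462 for HIST1H3E. Also, all 3 clustered pseudogenes are among the 9. The split therefore does not measure RNA past the stem-loop.

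In xenografts 57 of the 73 clustered genes reached 1 CPM, and the 4 most abundant held 27.2% of the summed level. Per kilobase of gene the highest mean levels were those of the H4 genes HIST1H4E (662 CPM per kilobase) and HIST1H4C (607), the latter named after its values were seen, followed by the linker histone genes HIST1H1C (461) and HIST1H1B (450). HIST1H4E and HIST1H4C thereby exceeded H2AFZ (388), the second variant in this order, and lay below H3F3AP4 (729). In control xenografts the summed level per kilobase was 2936 ± 667 for clustered H2B, 2877 ± 681 for H4, 1678 ± 443 for H2A, 1420 ± 335 for H1 and 1030 ± 261 for H3 genes (SD, n = 4). The means of H2B and H4, and those of H2A and H1, were closer than their SD.

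The ratio of the xenograft to the culture mean was 0.550 to 0.824 for the 10 variants above 1 CPM in culture. It was 6.93 for HIST1H2BK, 29.5 for HIST1H2BD, 35.6 for HIST2H2BE and 60.8 for HIST1H1C. The other clustered genes most abundant within their class in culture stood further apart. Thus HIST1H2AC was at 0.697 CPM in culture and 58.5 CPM in xenografts, and HIST1H2AE at 0.198 and 68.2 CPM. HIST1H1B, a linker histone gene, was at 0.0613 and 355 CPM. For HIST1H4H the levels were 0.188 and 79.5 CPM, and for HIST1H4E 0.184 and 249.6 CPM. Of the H3 genes, HIST1H3D was at 0.127 and 55.3 CPM, but HIST1H3E at 0.0717 and 0.962 CPM. HIST1H3E and HIST2H2BC (0.573 and 1.09 CPM) were close to 1 CPM in tumours in which most clustered genes were far higher.

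Variant genes were well covered in both sets. In culture 10 of the 17 passed the filter on low counts, and the same number did so in xenografts. Per kilobase, the order of mean levels in culture was H3F3AP4 (1190 CPM per kilobase), H2AFZ (630), H3F3B (203), H2AFV (203), H2AFY (179), H1F0 (176), H2AFY2 (60.2), H1FX (17.1), H2AFX (7.62) and H2AFJ (0.320). H3F3AP4, annotated as a pseudogene of H3F3A on chromosome 2, took nearly all counts of this pair. H3F3A itself had counts in 2 of 18 culture and 2 of 8 xenograft libraries, at most 0.228% of the pair, so that which of the copies gave these reads is uncertain, and values of H3F3AP4 are best read as those of the pair. Counts of HIST2H2AA3 and HIST2H2AA4, of HIST2H3A and HIST2H3C, of HIST2H4A and HIST2H4B, and of H2AFB1 and H2AFB3 were identical in every library and were split evenly between copies.

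Doxycycline in the EV line, which holds no hairpin, was compared first as the control for the drug. None of the 18 clustered and 10 variant genes tested changed (edgeR quasi-likelihood test, Benjamini-Hochberg adjusted p under 0.05 over all 14905 genes), none had an unadjusted p under 0.05, and DESeq2 also called 0 in each set. Among all genes tested 0.0939% changed, 0.0134% up and 0.0805% down. The median log2 fold change was 0.12 for the clustered genes and 0.03 for the variants, and 0.00989 over all genes. Of the variants, H2AFV and H2AFZ were lower in every doxycycline than in every DMSO library, with log2 fold changes of −0.10 and −0.08. Neither passed the test (edgeR adjusted p 0.672 for each), and the share of all genes separated in this way was not counted.

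The sh4 line was compared in the same way. Of the 18 clustered genes tested, 6 fell and none rose, while 40.9% of all genes changed (22.9% rose and 18% fell). The other 55 clustered genes did not pass the filter. The median log2 fold change was −0.94 over the 18 genes and −0.00463 over all genes, and 17 of 18 values were negative. Only 4 of these genes averaged 1 CPM or more in culture, and the identical HIST2H2AA3 and HIST2H2AA4 count as 1 measurement. A low-count gene can pass the filter through the groups where it is high, so this median and these signs do not measure the set. The median was −0.71 over 63 genes without the filter, and −0.72 over 11 with only the sh4 groups fitted. The doxycycline library of replicate 3 had the highest value of its group for 14 of the 18. Small RNA genes took 1.235% of its counts, against 1.016% and 0.996% in doxycycline replicates 1 and 2. With DMSO this share was 1.128% to 1.188% in the sh4 line. The part of small RNA content in the clustered values was not tested here either. Without doxycycline replicate 3, 11 genes fell. When trends of the fold change with gene length were removed, 3 did, and when only the sh4 groups were fitted, 2 of 11.

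HIST2H2BE, an H2B gene with a polyadenylated form, was at 6.23, 6.41 and 5.61 CPM with DMSO and 3.92, 3.41 and 3.56 CPM with doxycycline. The groups did not overlap, and it fell by 0.75 on the log2 scale (SE 0.0952, edgeR adjusted p 1.22e-05). HIST1H2BD, another H2B gene, was at 5.11, 4.62 and 4.82 CPM with DMSO and 3.45, 3.15 and 3.63 CPM with doxycycline. It fell by 0.51 on the log2 scale (SE 0.101, adjusted p 0.000758), again without overlap. HIST1H2BK, the most abundant, was between 18.4 and 18.7 CPM with DMSO and between 13.5 and 16.5 CPM with doxycycline, and fell by 0.30 (SE 0.0703, adjusted p 0.0029). With length trends removed its value was −0.10 and it was not called.

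HIST1H1C, which encodes a linker histone of somatic cells, was at 7.71, 6.78 and 5.83 CPM with DMSO and at 3.14, 3.17 and 6.09 CPM with doxycycline. Its groups overlapped through replicate 3, and the fall by 0.72 (SE 0.241, adjusted p 0.0255) was not called without replicate 1 or 2 of either group (adjusted p 0.0576 to 0.121), nor with length trends removed. HIST1H2AC, an H2A gene, was between 0.783 and 1.12 CPM with DMSO and at 0.401, 0.214 and 0.859 CPM with doxycycline, again overlapping through replicate 3. It fell by 1.07 (SE 0.376, adjusted p 0.0331), a call lost without the same 4 libraries (adjusted p 0.079 to 0.161). HIST1H2BO had the lowest fold change, −2.17 (SE 0.396, adjusted p 0.000376), but rested on 2 to 4 counts per doxycycline library against 10 to 22 with DMSO. It and the next 3 low-count genes named for shAMB fall outside the rule for naming and were chosen after their values were seen.

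Among the 10 variants tested, 1 rose and 6 fell with sh4, where 40.9% of all genes changed. With length trends removed 1 rose and 3 fell, with only the sh4 groups fitted 3 fell, and without doxycycline replicate 2 the number was 4. H1F0, a linker histone of resting and differentiating cells, was at 431, 428 and 406 CPM with DMSO and 243, 245 and 264 CPM with doxycycline. These groups were far apart, and H1F0 fell by 0.75 on the log2 scale (SE 0.0465, edgeR adjusted p 4.35e-09).

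The linker histone gene H1FX fell by 1.03 on the log2 scale (SE 0.353, adjusted p 0.0282), but its doxycycline libraries at 10.8, 11.8 and 31 CPM overlapped the DMSO range of 24.5 to 49.4 CPM. It was not called without replicate 1 or 2 of either group (adjusted p 0.0546 to 0.125). H3F3B and H3F3AP4, which encode the replacement histone H3.3, each fell by 0.21 (SE 0.048 and 0.047, adjusted p 0.00233 and 0.00181), but with length trends removed H3F3AP4 was at −0.05 and not called. H2AFZ, which encodes the H2A.Z found at promoters, had a value of −0.15 (SE 0.0419, adjusted p 0.00901) that turned to 0.03 with length trends removed. H2AFY, which encodes macroH2A, fell by 0.14 (SE 0.0443), and H2AFV, the second H2A.Z gene, rose by 0.18 (SE 0.0521, adjusted p 0.0102). Both of these calls were lost without some libraries, H2AFY without DMSO replicate 2 or doxycycline replicate 1 or 2 (−0.13 to −0.12), and H2AFV without DMSO replicate 1 or doxycycline replicate 2 (0.14 and 0.15). H2AFX, H2AFY2 and H2AFJ had values of −0.19, 0.01 and −0.13 and did not pass the test, although H2AFX was called without doxycycline replicate 3 (−0.45).

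With shAMB the clustered genes moved both ways. Of the 18 tested, 5 rose and 2 fell, where 66% of all genes changed (37.6% rose and 28.4% fell), and the median log2 fold change was 0.35 against 0.10 over all genes. The latter median moved to −0.02 when length trends were removed, and the calls over the clustered genes then were again 5 higher and 2 lower. As with sh4, the clustered median rests mostly on low-count genes, and it was 0.56 over 63 genes without the filter. Small RNA genes took 0.717% to 0.823% of counts with DMSO and 1.27% to 1.55% with doxycycline in this line, and clustered genes 0.835 to 0.893 and 0.990 to 1.11 counts per 100 variant counts. Neither range overlapped between treatments, and the part of small RNA content in the clustered changes was not tested. HIST1H1C rose, from 3.55, 2.73 and 4.31 CPM to 6.36, 7.78 and 7.59 CPM. The groups did not overlap, and the rise was 1.04 on the log2 scale (SE 0.245, edgeR adjusted p 0.00156). HIST1H2BD dropped, from between 3.89 and 4.11 CPM to between 2.15 and 2.34 CPM, and its log2 fold change was −0.83 (SE 0.105, adjusted p 4.41e-06). HIST1H2BK fell by 0.24 (SE 0.0707, adjusted p 0.00654), while HIST2H2BE, at 0.12 (SE 0.0935), did not pass the test.

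The other genes that rose with shAMB were of low count. HIST2H2BC, annotated as an H2B pseudogene, went from 0.246 ± 0.106 to 0.864 ± 0.263 CPM (SD, n = 3), and rose by 1.79 on the log2 scale (SE 0.434, edgeR adjusted p 0.00197). HIST1H4H, an H4 gene, held 1 to 5 counts with DMSO and 8 to 19 with doxycycline, and rose by 1.71 (SE 0.565, adjusted p 0.0146), a call lost without replicate 2 of either group (1.31 and 1.44). The identical copies HIST2H2AA3 and HIST2H2AA4 rose by 1.73 (SE 0.517, adjusted p 0.00824), and count as 1 measurement. HIST1H1C was the only clustered gene called in opposite directions with sh4 and with shAMB.

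Among the 10 variants tested, 4 rose and 3 fell with shAMB, a share of 70% beside 66% of all genes. H2AFZ was at 624, 677 and 680 CPM with DMSO and 383, 399.8 and 362 CPM with doxycycline. The groups were widely apart, and H2AFZ fell by 0.79 on the log2 scale (SE 0.0423, edgeR adjusted p 2.92e-10). H2AFV, with which it shares nearly all of its protein sequence, fell by 0.47 (SE 0.0523, adjusted p 1.32e-06), from 452 to 488 CPM down to 328 to 342 CPM. H3F3AP4 fell by 0.32 (SE 0.047), whereas H3F3B rose by 0.24 (SE 0.0479, adjusted p 0.00045), from 585 to 634 CPM up to 678 to 742 CPM. With length trends removed the value of H3F3B was 0.11 and it was not called.

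Linker variants rose with shAMB. H1F0 went from 441 to 468 CPM with DMSO up to 510 to 559.5 CPM with doxycycline, and rose by 0.24 on the log2 scale (SE 0.0462, edgeR adjusted p 0.000351). H1FX, at 13.2 to 16.9 CPM with DMSO, reached 28.4 to 47.0 CPM, and rose by 1.29 (SE 0.357, adjusted p 0.0048). H2AFY rose by 0.14 (SE 0.0443, adjusted p 0.0124), a call lost without replicate 2 of either group (0.11) and under DESeq2's size factors, where it was 0.06 and 3 variants rose and 4 fell. H2AFX, at 10.2 to 12.4 and 7.12 to 10.1 CPM, had a value of −0.39 (SE 0.192, adjusted p 0.0875), which these factors took past the threshold (−0.46).

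**Figure D2:**
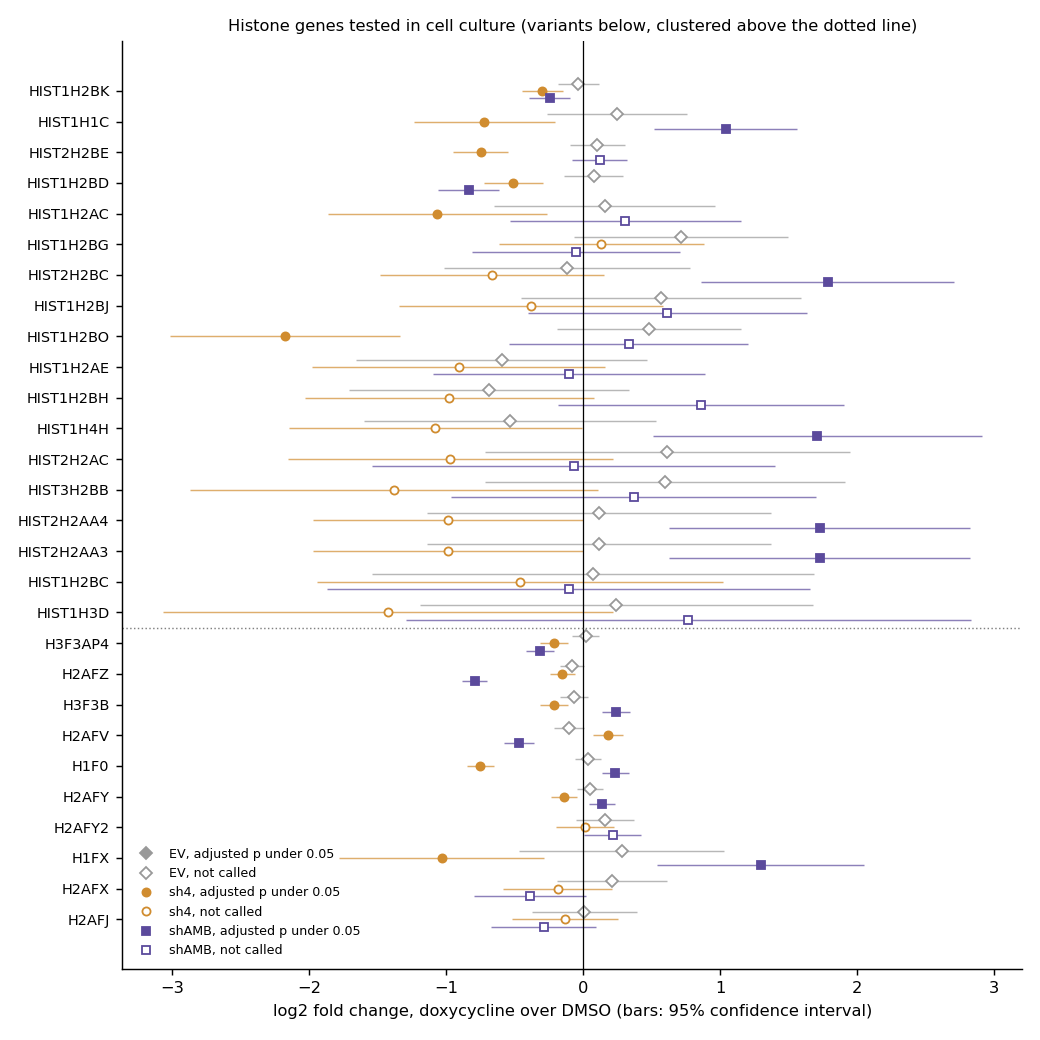
Log2 fold change of doxycycline over DMSO with 95% confidence intervals for the 10 variant and 18 clustered genes tested in culture, ordered by mean level within each set (most abundant on top), in the EV (diamonds), sh4 (circles) and shAMB (squares) lines. Filled symbols passed the test, which none did in EV. HIST1H1C, H1F0 and H1FX lie to the left of 0 with sh4 and to the right with shAMB, and intervals widen towards the low-count genes.

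Differences between lines in the effect of doxycycline were tested directly. The sh4 effect was below the shAMB effect in 9 and above it in none of the 18 clustered genes (60.9% of all genes differed, 33.1% in this direction and 27.8% in the other). For HIST1H1C the difference was −1.76 (SE 0.343, adjusted p 0.000455), for HIST2H2BE −0.87 (SE 0.133, adjusted p 5.39e-05) and for HIST1H2BD 0.32 (SE 0.145, adjusted p 0.0643, 95% confidence interval 0.02 to 0.63). The last was called under DESeq2's size factors (0.39), with length trends removed (0.58) and without sh4 doxycycline replicate 2 (0.38). Among the variants, 4 were lower and 2 higher with sh4 than with shAMB. H1F0 differed by −0.99 (SE 0.0655), H1FX by −2.33 (SE 0.501), H2AFZ by 0.64 (SE 0.0594) and H2AFV by 0.65 (SE 0.0738).

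Against the EV line, 4 clustered genes had a lower effect with sh4 (HIST1H1C, HIST1H2BD, HIST2H2BE and HIST1H2BO; 32.6% of all genes differed, 14.7% lower and 17.8% higher), and without the doxycycline library of replicate 3 there were 9. With shAMB 2 were higher (HIST1H4H and HIST2H2BC) and 1 lower (HIST1H2BD), where 45.5% of all genes differed (23.7% higher and 21.7% lower). HIST1H1C was not called against EV without 8 of the 12 libraries (−0.97 to −0.81), HIST1H4H without 4 (1.84 to 2.21) and HIST2H2BC without 2 (1.61 and 1.63). The variants split into 1 higher and 3 lower with sh4, and 2 higher and 3 lower with shAMB. H1F0 differed from EV in both lines, by −0.79 with sh4 (SE 0.0655, adjusted p 3.31e-07) and by 0.20 with shAMB (SE 0.0653, adjusted p 0.0204), the latter not called without 6 of the 12 libraries (0.16 to 0.19). The differences for sh4 and shAMB share the EV libraries.

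In xenografts, KO tumours were compared with controls. Of the 60 clustered genes tested, 20 fell and none rose, where 41.1% of all genes changed (21.2% rose and 19.9% fell). The median log2 fold change was −0.54 against 0.02 over all genes, and 55 of 60 values were negative. In the remaining 5 genes the value was 0.02 to 0.80 and did not pass the test. The H2B genes had the lowest median (−0.69, 9 of 15 fell), followed by H4 (−0.55, 5 of 13), H2A (−0.50, 4 of 16), H1 (−0.40, 1 of 5) and H3 (−0.37, 1 of 11). Differences between classes were not tested. The other 13 clustered genes did not pass the filter, and 3 of the 73 had no count in any xenograft.

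Individual tumours differed widely in clustered histone RNA. The summed level was 3665, 4717, 6266 and 6058 CPM in control replicates 1 to 4, and 4918, 2785, 3706 and 2499 CPM in KO replicates 1 to 4. KO replicate 1 lay above control replicates 1 and 2, so the groups overlapped. It had the highest value of the KO group in 58 of the 60 genes, and control replicate 1 the lowest of its group in 51. These libraries stood apart for the clustered set as a whole. Without KO replicate 1, 38 genes fell, and without control replicate 1, 33. Without control replicate 3, control replicate 4 or KO replicate 2, the numbers were 12, 10 and 10, and no clustered gene rose in any of these.

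Small RNA genes took 15.9% of counts in KO replicate 1 and 6.97% in control replicate 1, while control replicate 2, with a middle value of clustered RNA, had the highest share, 18.2%. Summed markers of non-tumour cells (16 genes, of which 13 were under 1 CPM in controls and 12 in KO, and 1 and 2 at 0) were at 50.5 to 84.9 CPM in controls and 78.9 to 120 CPM in KO. Of the 9 tested, 2 rose and 1 fell, where 21.2% of all genes rose and 19.9% fell. The same sum was 74.7 to 135 CPM across the culture libraries of KELLY cells alone, so that it does not measure host cells here. Host cells were of mouse, whereas counts were of human genes, and mouse reads among them were not examined. The part of small RNA and of other cells in the clustered levels was not tested. The median coefficient of variation among tumours of a group was 30.7% in control and 37.8% in KO for clustered genes, and 8.16% and 10.3% for the 10 variants tested.

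In 10 of the 20 genes that fell, all KO tumours were below all controls. The share of all genes, or of all genes that fell, with such separation was not counted. HIST1H2BD was at 145, 150.3, 186 and 202 CPM in controls and 85.7, 50.3, 67.8 and 56.8 CPM in KO. HIST1H2BD fell by 1.39 on the log2 scale (SE 0.169, edgeR adjusted p 0.000117), the most of the 20. HIST2H2AB, an H2A gene on chromosome 1, was at 55.8, 51.6, 67.6 and 69.6 CPM in controls and 37.3, 17.5, 24.1 and 22.1 CPM in KO, and fell by 1.28 (SE 0.206, adjusted p 0.000684). HIST1H1D, a linker histone gene, was at 120.1, 97.7, 138 and 127 CPM against 69.6, 40.9, 56.2 and 42.2 CPM, and fell by 1.21 (SE 0.172, adjusted p 0.000324). In each of these the highest KO tumour was replicate 1.

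HIST1H2AB, an H2A gene, fell by 0.82 on the log2 scale (SE 0.151, edgeR adjusted p 0.00149), from 30.4 to 41.0 CPM down to 15.5 to 24.9 CPM. HIST1H2BM, an H2B gene, fell by 0.81 (SE 0.16, adjusted p 0.00226), from 134 to 188 CPM down to 73.1 to 124 CPM. The remaining genes without overlap were HIST1H2AD, HIST1H2BC, HIST1H2BG, HIST1H2BO and HIST1H4C, at −0.52 to −0.72, named here after their values were seen. HIST1H2AC and HIST1H4H, abundant in their class in culture, fell by 0.63 and 0.67 (SE 0.222 and 0.235, edgeR adjusted p 0.0433 and 0.0405) with overlapping groups, and each call was lost without any of 6 of the 8 libraries (all but replicate 1 of each group).

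Of the 4 most abundant clustered genes in xenografts, HIST1H4C fell and HIST1H1B, HIST1H1C and HIST1H4E did not pass the test. HIST1H1B was at 258, 426, 528 and 483 CPM in controls and 435, 216, 301 and 192 CPM in KO. Its groups overlapped, with a value of −0.57 (SE 0.268, edgeR adjusted p 0.117) that was called without KO replicate 1 (−0.84) or control replicate 1 (−0.78). HIST1H1C had −0.40 (SE 0.194, adjusted p 0.125), HIST1H4E −0.34 (SE 0.187) and HIST2H2BE −0.43 (SE 0.231). Without control replicate 1 these were called, at −0.58, −0.51 and −0.64, and HIST1H1C also without KO replicate 1 (−0.53). HIST1H2BK, which led in culture, was at 78.5 to 162 CPM and 73.5 to 149.8 CPM, with −0.25 (SE 0.243, adjusted p 0.437).

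**Figure D3:**
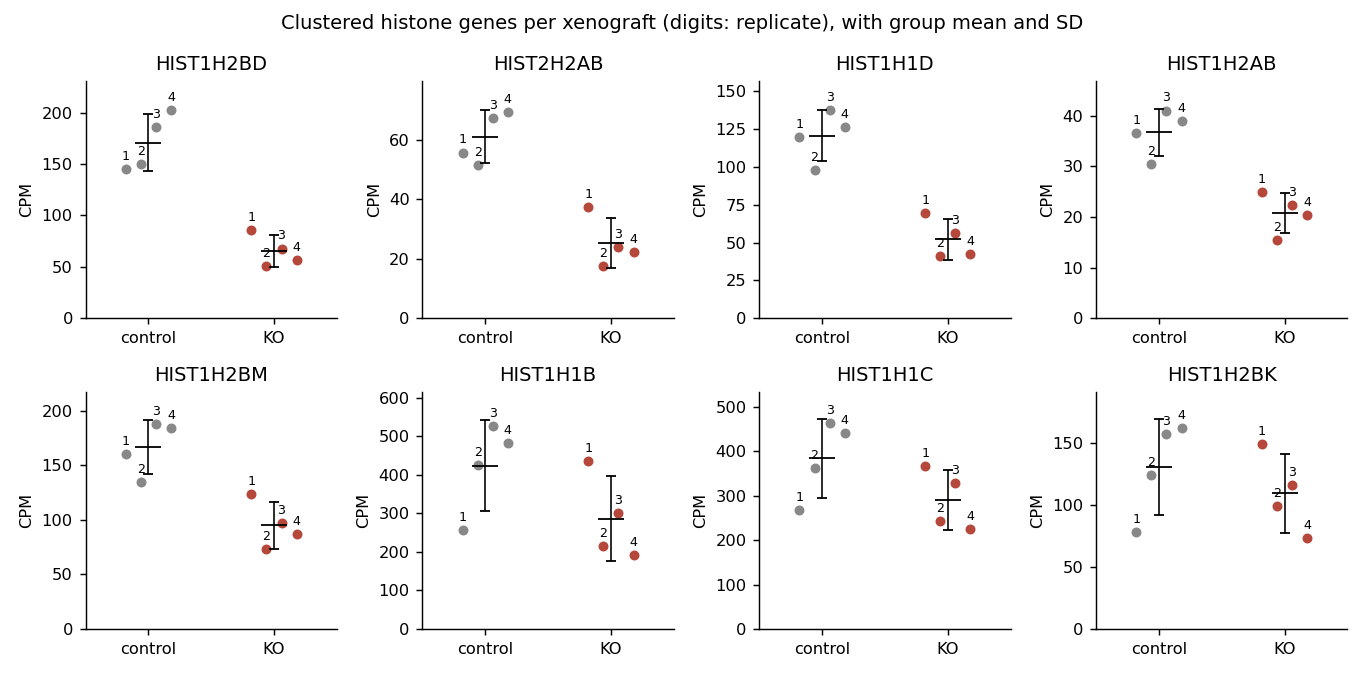
CPM of 8 clustered genes in each xenograft, marked by replicate number, with group mean and SD (n = 4 each), for control (grey) and KO (red) tumours. The 5 genes HIST1H2BD, HIST2H2AB, HIST1H1D, HIST1H2AB and HIST1H2BM are separated between groups, whereas HIST1H1B, HIST1H1C and HIST1H2BK overlap, with KO replicate 1 among the high and control replicate 1 among the low values.

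Of the 10 variants tested in xenografts, 5 fell and 1 rose, where 19.9% of all genes fell and 21.2% rose. H2AFZ was at 464, 430.0, 491 and 502 CPM in controls and 268, 245, 282 and 260.4 CPM in KO. The lowest control was well above the highest KO tumour, and H2AFZ fell by 0.84 on the log2 scale (SE 0.0875, edgeR adjusted p 5.24e-05). H2AFV fell by 0.61 (SE 0.0892, adjusted p 0.000374), from 394 to 442 CPM down to 248 to 299.7 CPM. H2AFX, the variant with the stem-loop shown above, was at 6.49, 9.03, 8.99 and 9.78 CPM against 5.77, 4.15, 5.23 and 4.03 CPM. It fell by 0.84 (SE 0.182, adjusted p 0.00386), with no overlap.

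The genes of H3.3 moved apart. H3F3B rose by 0.43 on the log2 scale (SE 0.0911, edgeR adjusted p 0.00361), from 359.5 to 426 CPM up to 507 to 587 CPM, and was the only histone gene that rose in KO tumours. H3F3AP4, which stands for H3F3A and its copy, fell by 0.37 (SE 0.0992, adjusted p 0.0117), a call lost with length trends removed (−0.25). H2AFY2, the second macroH2A gene, fell by 0.42 (SE 0.142, adjusted p 0.0369), with overlapping groups, and was not called without any of replicates 2, 3 and 4 of either group (−0.48 to −0.33). H1F0, H1FX and H2AFY had values of −0.00720, −0.01 and 0.01. H2AFJ, at 0.467 to 1.04 CPM, had −0.44 (SE 0.256, adjusted p 0.194).

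**Figure D4:**
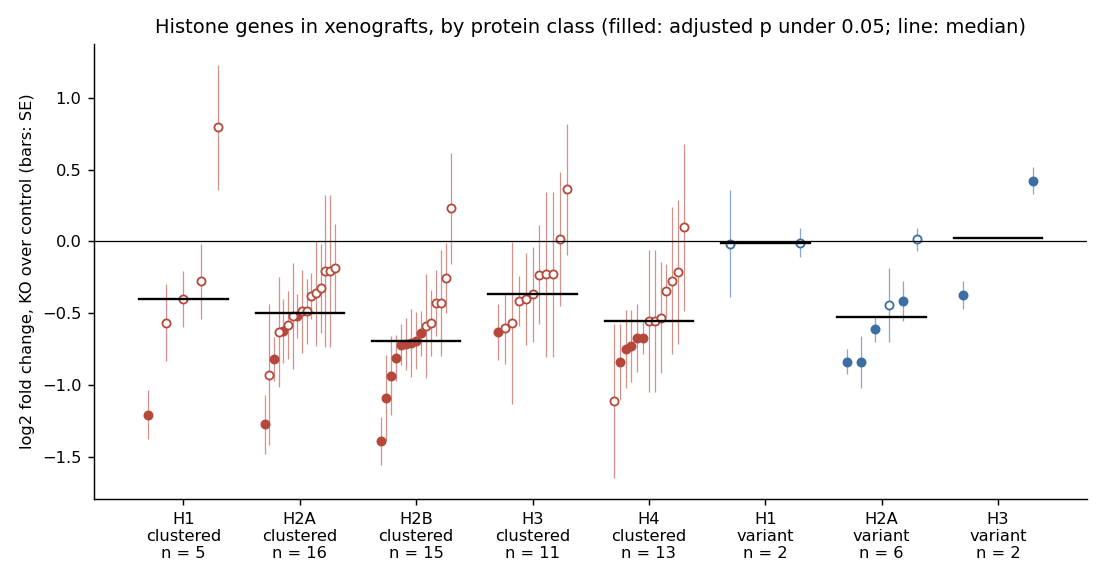
Log2 fold change of KO over control xenografts with SE for each histone gene tested, grouped by protein class and set, with the number of genes and a line at the median. Filled symbols passed the test. All 20 filled clustered genes lie below 0, whereas 1 of the 6 filled variants, H3F3B, lies above it.

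Across culture and xenografts, HIST1H2BD, H2AFZ and H3F3AP4 fell with sh4, with shAMB and in KO tumours. With length trends removed, the sh4 calls of H2AFZ and H3F3AP4 and the KO call of H3F3AP4 were lost. H2AFV fell with shAMB and in KO tumours but rose with sh4, a call lost without some libraries. H1F0 changed with each hairpin in opposite directions but had a value near 0 in tumours. The shAMB line and the tumours may share a hairpin and need not be independent. The sizes come from separately normalised tables, and differences between them were not tested.

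**Figure D5:**
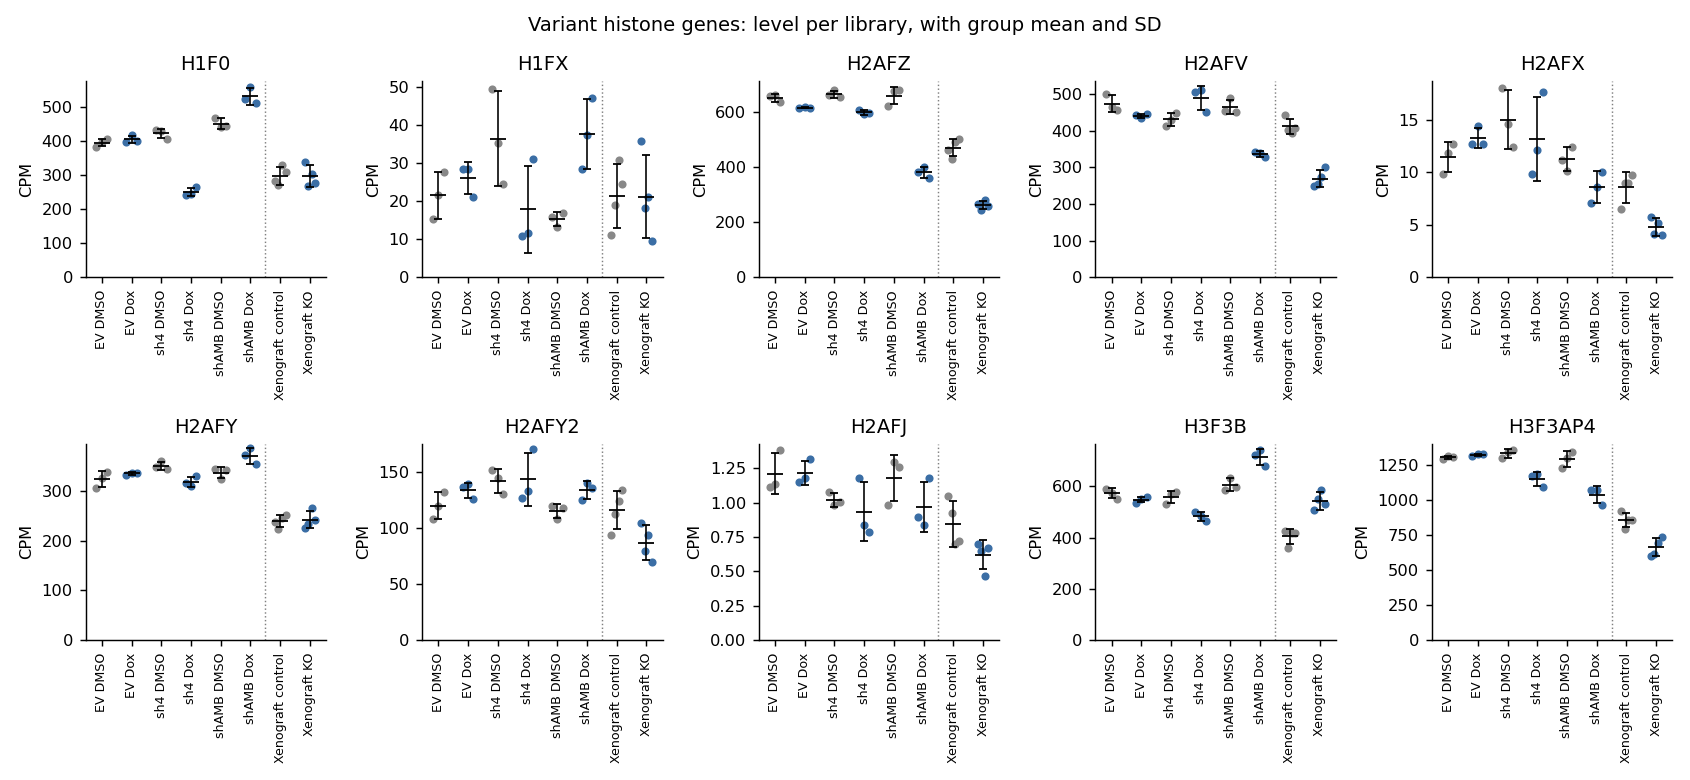
CPM of the 10 variant genes tested, per library with group mean and SD, in the 6 culture groups (n = 3 each) and the 2 xenograft groups (n = 4 each), separated by a dotted line; blue points are doxycycline or KO libraries. H2AFZ falls from 624 to 680 CPM to 362 to 399.8 CPM with shAMB and from 430.0 to 502 CPM to 245 to 282 CPM in KO tumours, and H3F3B is higher in the second group of both pairs.

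Genes of DNA replication and genes that act on histones were then examined by lists. DNA replication and S phase genes fell in 26 of 28 cases in KO tumours and none rose (median log2 fold change −0.58), where 41.1% of all genes changed and 19.9% fell. The largest values were those of TK1 and RRM2, which supply nucleotides (−1.09 and −1.03; SE 0.267 and 0.102), of UHRF1, which maintains DNA methylation (−1.06; SE 0.139), and of GINS2, a subunit of the replicative helicase (−0.86; SE 0.101). The summed level of this list was 3717 to 4328 CPM in controls and 2391 to 2658 CPM in KO. These ranges did not overlap, unlike those of clustered histones.

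In culture the same list had 2 genes higher and 9 lower with sh4, and 1 higher and 19 lower with shAMB (medians −0.13 and −0.24). Over all genes 40.9% and 66% changed. With sh4, CCNE1 and CCNE2, the E-type cyclins of S phase entry, rose by 1.20 (SE 0.0472) and 0.83 (SE 0.0822), while MCM4 of the helicase and CDK2, the kinase partner of these cyclins, fell by 0.97 (SE 0.0307) and 0.66 (SE 0.0381). With shAMB, MCM5 rose by 0.99 (SE 0.269), and RRM2 and CCNA2 (cyclin A) fell by 0.84 and 0.63 (SE 0.0639 and 0.0781). No gene of the list changed in EV.

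Histone chaperones, which carry histones to DNA and exchange them, fell in 16 of 24 cases and rose in 1 in KO tumours (median −0.34), beside 19.9% and 21.2% of all genes. SUPT16H of the FACT complex had −1.27 (SE 0.09), NAP1L1, which carries H2A and H2B, −1.03 (SE 0.0975), CHAF1A of the CAF-1 complex, which deposits H3 and H4 behind the fork, −0.93 (SE 0.0937), and TONSL −0.88 (SE 0.298). With shAMB 14 fell and 5 rose, with SUPT16H at −1.42 (SE 0.0622) and NAP1L1 at −1.07 (SE 0.0755). With sh4 5 fell and 4 rose, and NAP1L1 fell by 0.41 (SE 0.0748). All-gene shares were 66% changed with shAMB and 40.9% with sh4.

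Genes for histone transcription and for processing of the stem-loop end formed another list. In KO tumours 4 of 18 fell and 2 rose (median −0.08), where 41.1% of all genes changed, with SNRPD3 and SNRPB, Sm proteins of small nuclear particles, at −0.48 (SE 0.0976) and −0.47 (SE 0.159), and ERI1, an exonuclease that trims the stem-loop end, at −0.45 (SE 0.109). With sh4 3 rose, among them ERI1 (0.46, SE 0.0748) and ZNF473 (0.40, SE 0.046), a zinc finger protein of the processing machinery. With shAMB 5 rose and 3 fell, led by MIF4GD (0.98, SE 0.106), a partner of the stem-loop binding protein in translation. These stood beside 40.9% of all genes changed with sh4 and 66% with shAMB. The stem-loop binding protein itself, SLBP, singled out after its values were seen, was at 43.3 ± 5.15 and 37.6 ± 4.08 CPM in control and KO tumours (SD, n = 4), and had a value of −0.20 (SE 0.114, edgeR adjusted p 0.183).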

How the data were processed

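RNA sequencing of 18 culture libraries and 8 xenografts was analysed. The authors deposited RSEM expected counts and TPM for 26485 genes. STAR, SAMtools, RSEM and hg38 are named in the submitters' processing notes. Versions and strand use in counting are not given in the sources used here. Deposited gene lengths, in bases, gave levels per kilobase. TPM entered only as an alternative for the ratio of sets.

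Rounded expected counts entered edgeR 4.0.16 under R 4.3.3, with filterByExpr (14905 and 15960 genes), TMM factors (0.974 to 1.07 and 0.936 to 1.09) and quasi-likelihood tests, two-sided, adjusted by Benjamini-Hochberg over all genes. A gene with adjusted p under 0.05 is called changed. The 18 culture libraries shared 1 fit. The fits were first run on simulated data with changes placed only in genes above 1 CPM on average, so that low-count genes were not covered. The headers' Neg was taken to mean DMSO and Pos doxycycline, and culture directions rest on this reading. DESeq2 1.42.0 and other settings served as alternatives.

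Members and lists were chosen with earlier results of these data known. Named are variants at 1 CPM or more, the 2 most abundant clustered genes per class in culture, up to 5 clustered genes per direction called without overlap and at 1 CPM or more, and those called in opposite directions with sh4 and shAMB. List genes named are the up to 4 with the largest fold changes per comparison. A gene that met this rule is not reported here. Sequences came from hg38 and RefSeq, and all 90 genes were matched by transcript accession. Reads are not molecules, so that counts carry amplification error too. Total counts per library limit precision for genes under about 1 CPM.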

Additional observations from a re-analysis of the deposited data

Results flagged for a closer look

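In 64 checks of groups of 4 xenografts for a library far from the others, 2 were positive. The checks share libraries and genes that vary together, so that their number cannot be set against chance. In the controls, replicate 2 lay below the rest with 359.5 CPM for H3F3B and with 2619 CPM for the summed variants, which include H3F3B. The same library had the highest share of small RNA, 18.2%, and its part in these values was not tested.

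The effect of doxycycline on 30 occasions differed between lines for a named histone gene, by edgeR's test of the difference with adjusted p under 0.05. Between sh4 and EV the log2 differences were −0.79 for H1F0, 0.29 for H2AFV, −0.19 for H2AFY, −0.23 for H3F3AP4, −0.97 for HIST1H1C, −0.85 for HIST2H2BE, −0.59 for HIST1H2BD and −2.66 for HIST1H2BO. Between shAMB and EV they were 0.20 for H1F0, −0.36 for H2AFV, −0.71 for H2AFZ, −0.34 for H3F3AP4, 0.30 for H3F3B, 2.24 for HIST1H4H, −0.91 for HIST1H2BD and 1.90 for HIST2H2BC. Between sh4 and shAMB the variants differed by −0.99 for H1F0, −2.33 for H1FX, 0.65 for H2AFV, −0.28 for H2AFY, 0.64 for H2AFZ and −0.45 for H3F3B. The clustered genes differed by −1.76 for HIST1H1C, −1.37 for HIST1H2AC, −0.87 for HIST2H2BE, −2.78 for HIST1H4H, −2.51 for HIST1H2BO, −2.71 for HIST2H2AA3 and likewise for its copy HIST2H2AA4, and −2.45 for HIST2H2BC. H1F0, H2AFV and HIST1H1C were the genes in which the sh4 and shAMB effects were each called and opposite in sign, besides H1FX, H2AFY and H3F3B.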

How the results depend on the processing

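The number of clustered genes changed in KO xenografts was 20, with 10 to 38 when 1 library was left out, 13 with the replicate number as a block and 8 with block and gene length trends removed. With sh4 the number was 6 (4 to 11 without 1 library), 3 with length trends removed and 2 when only the groups compared were fitted. The variants changed with sh4 numbered 7 (4 to 8 without 1 library), 4 with length trends removed, 3 with the block added to this and 3 with only the groups compared. For sh4 against EV, 4 clustered genes differed (3 to 9 without 1 library) and 4 variants (3 to 7), and 2 of each did with length trends removed. For shAMB against EV 3 clustered genes differed (2 to 5 without 1 library), and 5 with only the groups compared. The cause of these shifts was not tested, beyond the fewer libraries and genes of some fits. All other counts stayed within 1.5 times their value. Deviations of same-numbered libraries from their group means correlated at −0.60 to 0.13 in culture and −0.50 to 0.37 in xenografts. With 3 or 4 libraries per group this cannot decide whether replicate numbers pair the libraries.

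The direction turned only for H2AFZ with sh4 (0.0282 with length trends removed, 0.0258 with the block added) and for H3F3AP4 in sh4 against EV (0.0247 and 0.0191, likewise). Of 2501 alternative values for single genes, 2307 kept direction and side of the threshold, 131 lost and 59 gained the call. Counts of clustered per count of variant genes, 0.0106 (EV DMSO), 0.0112 (EV doxycycline), 0.0112 (sh4 DMSO), 0.00904 (sh4 doxycycline), 0.00869 (shAMB DMSO), 0.0104 (shAMB doxycycline), 1.83 (control) and 1.46 (KO), became in this order 0.0160, 0.0171, 0.0169, 0.0135, 0.0129, 0.0147, 2.62 and 2.00 without pseudogene symbols, and 0.0216, 0.0230, 0.0240, 0.0191, 0.0171, 0.0245, 7.23 and 6.28 in summed TPM. Depth limits the culture values of clustered genes, most of which held fewer than 10 counts per library.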
